A study of Mus musculus with 19 samples.

Results

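The adventitia, the outer layer of an artery, holds fibroblasts that carry surface markers of mesenchymal progenitors, and a short list of genes is commonly used to recognise them. The list examined here was fixed by name but chosen with earlier results of these data known. Its counts beside the shares of all genes are therefore a description only. The list comprised Pi16, Cd34, Dpp4, Ly6a, Dpt, Cd248, Scara5, Gli1, Tcf21 and Sfrp1. Of these 10 genes, 9 were measured by a probe set carrying exactly 1 gene symbol, out of 30142 genes so measured. Ly6a, which encodes the stem cell antigen Sca-1, had no such probe set in the annotation used and was not analysed here. There was no filter on low signal, so all 9 entered the tests.

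Each array held RNA from the infrarenal aorta of 1 C57BL/6J mouse operated on at 10 weeks of age and sampled 7 days later. In 7 male and 4 female mice the aorta had been infused for 5 min at 120 mmHg with porcine pancreatic elastase (PPE) at 2.5 U/mL in saline, and in 5 male and 3 female sham mice with saline alone. All mice thus had the clamping, aortotomy and pressurised infusion, and none was unoperated. Elastase digests the elastic fibres of the wall, and the infused segment widens into an aneurysm in this commonly used model. The 2 cohorts are the 12 male and the 7 female arrays. Their values may have been scaled apart, since the array medians lay between 5.61 and 5.85 in males and between 6.17 and 6.31 in females. Levels were therefore compared only within a sex. The question is how these fibroblast genes differed between PPE and sham aortae in each cohort.

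Adventitial fibroblasts that express Pi16 and Dpp4 are regarded as a reservoir from which more specialised fibroblasts arise, and their counterparts in fat give rise to adipocytes. They lie beside the small vessels and nerves of the outer wall, where Hedgehog signalling through Gli1 and WNT signalling modulated by secreted inhibitors are known to act on them. None of the markers is exclusive to these cells: Cd34 is also made by endothelium, Cd248 by pericytes and Dpp4 by T cells. In a bulk sample, fewer cells of a type and less RNA per cell cannot be told apart.

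The list did not move as 1 group. In males Scara5, Dpt, Cd34, Pi16 and Gli1 fell after PPE, by 1.5 to 2.38-fold, Dpp4 rose 2.92-fold, and Cd248, Tcf21 and Sfrp1 did not pass the test (limma, Benjamini-Hochberg adjusted p below 0.05 over 30142 genes). In females Pi16, Scara5 and Cd34 fell, Dpp4 rose 2.33-fold, and the other 5 did not pass. The counts were therefore 5 lower and 1 higher of 9 in males, where 9.98% of all genes were called lower and 9.67% higher (19.7% in all). In females they were 3 lower and 1 higher of 9, where 1.45% of all genes were called lower and 2.77% higher (4.22% in all). The 3 genes called lower in females were called lower in males too. Over all genes 438 were called lower in females and 394 (1.31%) in both cohorts. Most genes called lower in females were thus called lower in males. The female count was 0 without female sham 1, female sham 2, female PPE 1 or female PPE 2, and 1 without female sham 3 or female PPE 3. The median log2 change over the 9 genes was −0.58 in males and −0.26 in females, beside 0.01 and −0.02 over all genes. The log2 change was below 0 for 7 of the 9 genes in each cohort, against 48.5% of all genes in males and 55.4% in females. It had the same sign in both cohorts for all 9, but the share of all genes that did so was not computed. The female signs of Cd248 (−0.17 to 0.22) and Tcf21 (−0.35 to 0.01) turned in some fits that left out 1 array. All PPE values lay below all sham values for 2 of the 9 genes in males and 4 in females (4.68% and 8.86% of all genes), and above them for 1 in each (4.69% and 11% of all genes). When the male response was set against the female one (male minus female), limma called 0 of the 9, and 0 also had an unadjusted p under 0.05. Over all genes 0.541% were called, 0.0398% with a higher and 0.501% with a lower response in males.

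**Figure D1:**
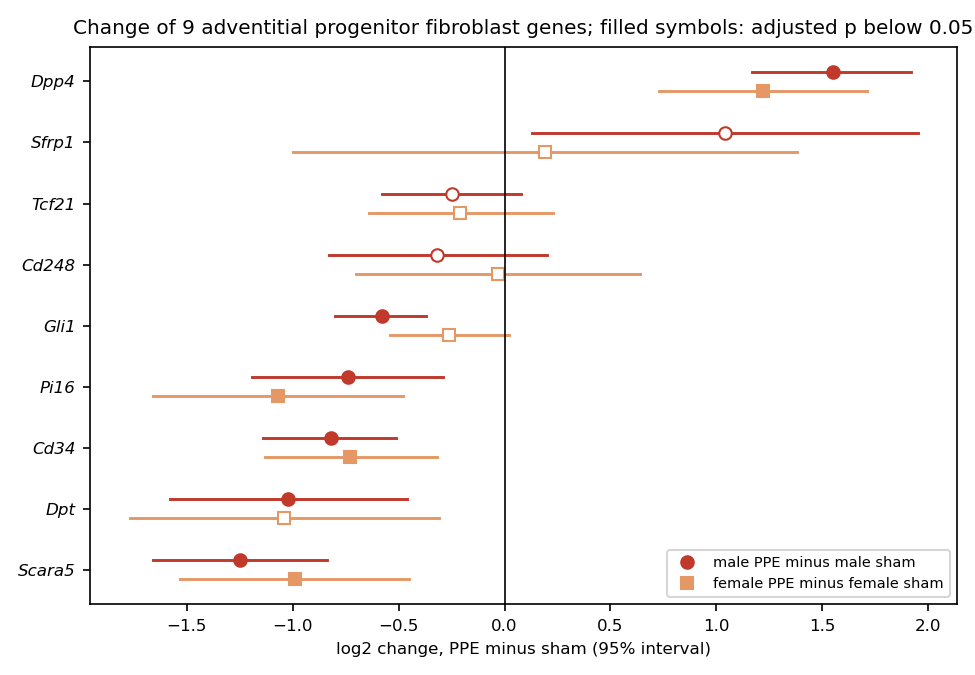
Log2 change (PPE minus sham) of the 9 genes with 95% intervals, circles for males (7 PPE, 5 sham) and squares for females (4 PPE, 3 sham), filled where the adjusted p was below 0.05. Dpp4 lies at 1.55 and 1.22 on the right, and Scara5, Dpt, Cd34 and Pi16 lie between −1.25 and −0.73 in both cohorts.

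The promoter sequences used here covered 5 of the measured genes and lacked Scara5, Gli1, Cd248 and Sfrp1. For 4 of the 5 the RefSeq sequence upstream of the outermost annotated gene start (GRCm38.p6) is shown. These 4 comprise 3 genes lower after PPE and the gene that rose, and Tcf21 is not shown. Capitals mark every E-box (letters CANNTG), the element bound by basic helix-loop-helix factors such as the listed Tcf21. Each runs 5′ to 3′ on the strand of its gene.
Pi16, chr17:29318632-29318795, plus strand: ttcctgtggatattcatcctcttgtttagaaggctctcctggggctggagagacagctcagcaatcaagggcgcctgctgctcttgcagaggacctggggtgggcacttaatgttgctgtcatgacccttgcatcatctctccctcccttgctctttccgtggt
Cd34, chr1:194938571-194938820, plus strand: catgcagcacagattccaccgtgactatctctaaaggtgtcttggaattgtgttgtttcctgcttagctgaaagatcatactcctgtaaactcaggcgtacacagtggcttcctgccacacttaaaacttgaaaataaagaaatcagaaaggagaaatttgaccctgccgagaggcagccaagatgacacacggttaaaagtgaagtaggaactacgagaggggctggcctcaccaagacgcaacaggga
Dpt, chr1:164796413-164796662, plus strand: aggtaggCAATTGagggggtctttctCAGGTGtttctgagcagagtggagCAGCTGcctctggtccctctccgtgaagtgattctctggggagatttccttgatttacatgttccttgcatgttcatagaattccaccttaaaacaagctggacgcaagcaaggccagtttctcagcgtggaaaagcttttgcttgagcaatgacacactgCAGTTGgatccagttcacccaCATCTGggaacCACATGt
Dpp4, chr2:62412316-62412481, minus strand: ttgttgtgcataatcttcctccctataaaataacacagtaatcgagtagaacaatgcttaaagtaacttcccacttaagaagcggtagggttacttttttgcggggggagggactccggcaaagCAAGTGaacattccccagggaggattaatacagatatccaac

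The windows differed in their E-boxes. The 250 bases before Dpt held 6 matches, no 2 of them of the same letters, whereas 66.2% of 32851 mouse promoter windows of that length held any and 0.27% held 6 or more. The 166 bases before Dpp4 held 1 match (CAAGTG), a property of 52.7% of windows of that length. The windows of Pi16 and Cd34 held 0, as did the 250 bases before Tcf21. A STAT-type element (TTCNNNGAA, its own reverse complement) was found once, as TTCATAGAA with its first base at −128 from the start of Dpt, and in 7.0% of all windows of 250 bases. The Hedgehog-responsive GLI element (GACCACCCA, searched on both strands) was in none of these windows and in 0.2% of all windows of 250 bases. A match describes the letters only and shows no binding.

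Among the genes of secreted and matrix proteins, Pi16 encodes peptidase inhibitor 16, whose expression defines the pan-tissue reservoir of fibroblasts (17: 29318796 to 29328903, mm10). It had log2 values with a lowest of 8.02, a median of 8.27 and a highest of 8.52 in the 7 male PPE aortae, against 9.35, 9.24, 9.10, 8.08 and 9.43 in the 5 male sham aortae. Only male sham 4, at 8.08, lay within the PPE range, and the other sham aortae lay above every PPE value. Pi16 fell by 0.74 ± 0.21 on the log2 scale in males (SE, n = 7 and 5, 1.67-fold, adjusted p = 0.0191). Without male sham 4 the change was −0.98 (adjusted p = 0.000437), and the call was lost without male sham 1 (adjusted p = 0.0593) or male sham 5 (adjusted p = 0.0604). With replicate numbers as a block the call was lost too (adjusted p = 0.17).

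In females Pi16 measured 8.67, 8.40, 9.37 and 9.30 in PPE aortae, against 9.93, 10.29 and 9.79 in sham aortae. The groups did not overlap. Pi16 fell by 1.07 ± 0.28 (n = 4 and 3, 2.10-fold, adjusted p = 0.0370). This call was lost without any 1 of the 3 female sham arrays, female PPE 1 or female PPE 2 (adjusted p between 0.0658 and 0.191), after median centring (adjusted p = 0.059) and in a fit of the female arrays alone (adjusted p = 0.0508). With replicate numbers as a block the call was lost too (adjusted p = 0.13).

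Dpt encodes dermatopontin, a matrix protein that binds decorin and takes part in collagen fibril assembly (1: 164796663 to 164824274). In males its values had a lowest of 15.59, a median of 16.17 and a highest of 17.04 in PPE aortae, against 17.59, 17.80, 17.17, 16.72 and 16.88 in sham aortae. The groups overlapped, since male PPE 5, at 17.04, lay above male sham 4 and 5. Dpt fell by 1.02 ± 0.27 (2.02-fold, adjusted p = 0.0101) in males, and after quantile normalization it stood at −0.85 without passing (adjusted p = 0.0747). With replicate numbers as a block it did not pass either (adjusted p = 0.0937).

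The female values of Dpt were 16.32, 17.12, 16.14 and 16.90 in PPE aortae, against 17.61, 17.56 and 17.80 in sham aortae. Every PPE value lay below every sham value. The difference of −1.04 ± 0.35 did not pass over all genes (adjusted p = 0.117), although it was as large as in males, and it passed with array weights (adjusted p = 0.025) and in a fit of the female arrays alone (adjusted p = 0.0412). Dpt lay between the 98.2nd and the 99.7th percentile of all genes on every array, near the top of the signal range.

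Sfrp1 encodes a secreted frizzled-related protein that binds WNT ligands (8: 23411383 to 23449632). Its values in males had a lowest of 16.30, a median of 16.63 and a highest of 17.03 in PPE aortae, against 15.36, 16.21, 17.73, 14.30 and 14.54 in sham aortae. The PPE aortae were tightly grouped (16.67 ± 0.31, SD, n = 7) and the sham aortae widely spread (15.63 ± 1.39, SD, n = 5), with male sham 3 above and the other 4 sham aortae below every PPE aorta. The difference of 1.04 ± 0.43 did not pass (adjusted p = 0.111). It rested on single arrays: without male sham 3 it was 1.56 and passed (adjusted p = 0.00147), and without male sham 4 it was 0.71 (adjusted p = 0.301).

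Females had Sfrp1 values of 15.43, 16.21, 16.75 and 16.71 in PPE aortae, against 16.39, 15.96 and 15.90 in sham aortae. These groups overlapped, with female PPE 1 the lowest of all. The difference was 0.19 ± 0.57 (adjusted p = 0.937), with a 95% interval from −1 to 1.38 that leaves its direction unsettled.

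**Figure D2:**
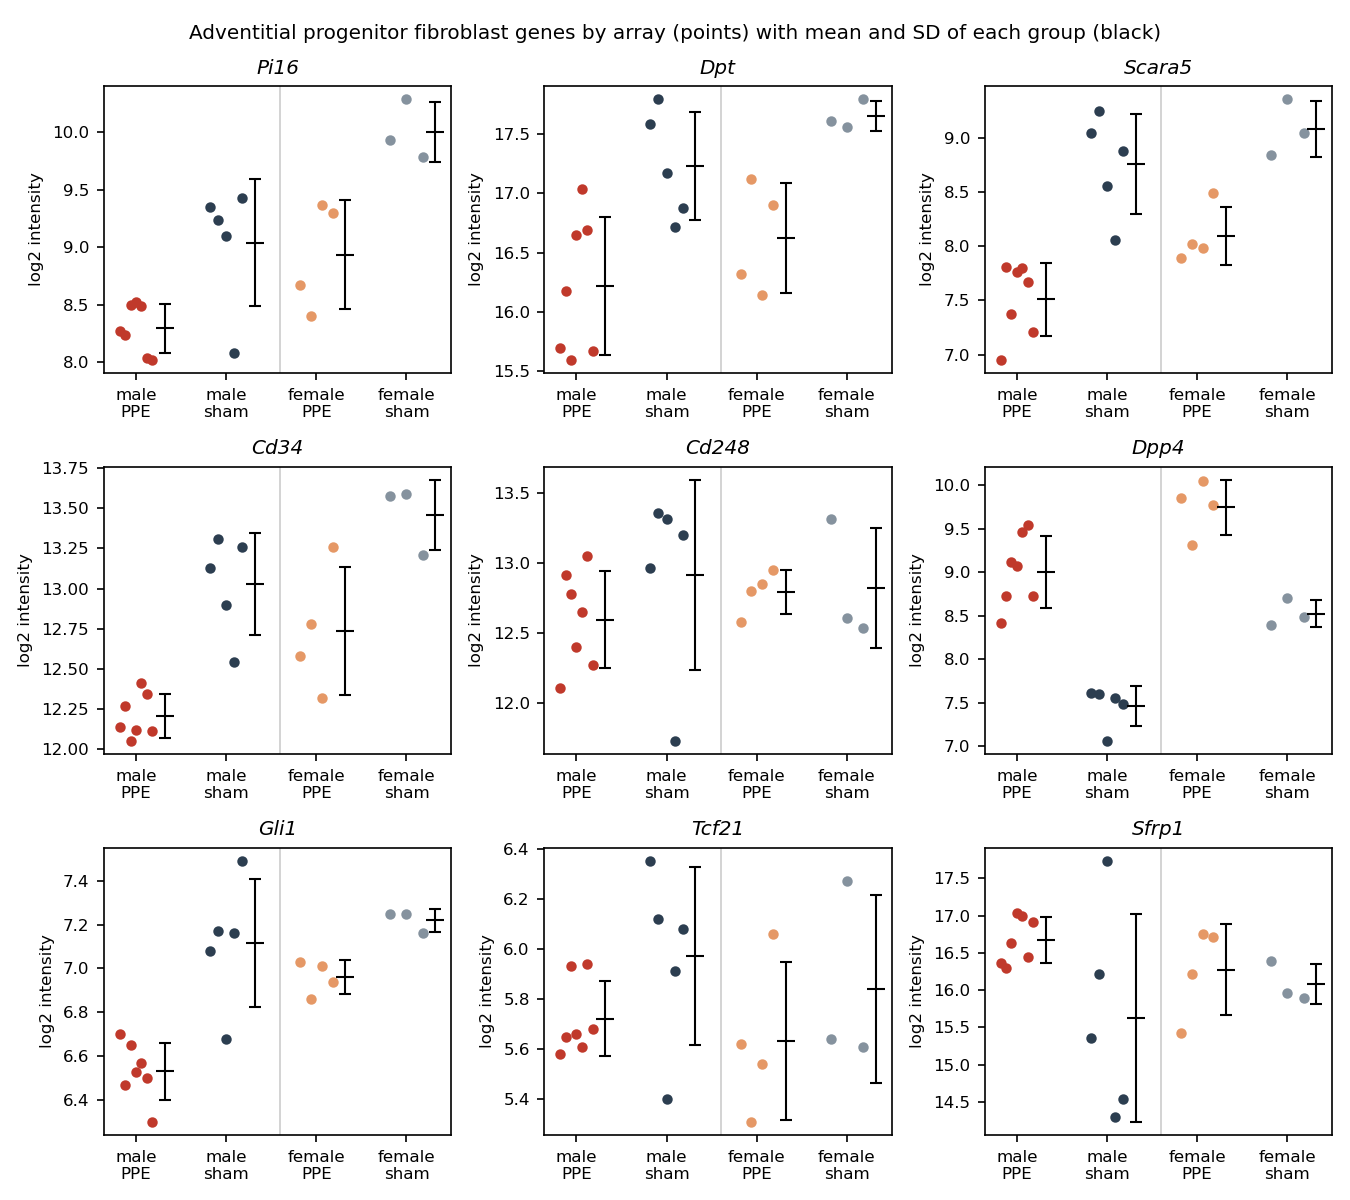
Log2 intensity of each of the 9 genes in every array (points), for male PPE, male sham, female PPE and female sham aortae from left to right, with the mean and SD of each group in black. Dpp4 is the gene whose PPE aortae all lie above the sham aortae in both sexes, Scara5 the gene whose PPE aortae all lie below, and Sfrp1 shows the wide male sham spread of 14.30 to 17.73.

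Of the cell surface genes, Scara5 encodes a class A scavenger receptor that takes up ferritin (14: 65666403 to 65764826). It had a lowest of 6.95, a median of 7.67 and a highest of 7.81 in male PPE aortae, against 9.05, 9.25, 8.56, 8.06 and 8.88 in male sham aortae. The groups did not overlap. Scara5 fell by 1.25 ± 0.20 in males (2.38-fold, adjusted p = 0.000138), a call found whichever array was left out (19 fits, adjusted p at most 0.000738).

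In females Scara5 was 7.89, 8.02, 7.98 and 8.49 in PPE aortae, against 8.84, 9.36 and 9.05 in sham aortae. Again no PPE value reached a sham value. Scara5 fell by 0.99 ± 0.26 (1.98-fold, adjusted p = 0.0345). Leaving out any female array but female PPE 4 raised the adjusted p to between 0.0629 and 0.186, median centring to 0.0705 and replicate numbers as a block to 0.086.

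Cd34 encodes a sialomucin of haematopoietic progenitors, endothelium and adventitial stromal cells (1: 194938821 to 194961292). Male PPE aortae had a lowest of 12.05, a median of 12.14 and a highest of 12.41, against 13.13, 13.31, 12.90, 12.54 and 13.26 in male sham aortae. All PPE values lay below all sham values, and the PPE aortae were tightly grouped. Cd34 fell by 0.82 ± 0.15 in males (1.77-fold, adjusted p = 0.000542), with adjusted p at most 0.00246 in the fits that left out 1 array.

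In female PPE aortae Cd34 stood at 12.58, 12.78, 12.32 and 13.26, against 13.58, 13.59 and 13.21 in female sham aortae. Female PPE 4, at 13.26, lay above female sham 3, so the groups overlapped. Cd34 fell by 0.73 ± 0.19 (1.65-fold, adjusted p = 0.0415), a call that was lost without female sham 1 or 2, female PPE 1, 2 or 3, male sham 1, or male PPE 2, 4 or 7 (adjusted p between 0.0505 and 0.185). It was also lost in a fit of the female arrays alone (adjusted p = 0.101), after median centring (adjusted p = 0.0905) and with an intensity trend and robust prior (adjusted p = 0.0524). Of the endothelial genes, 4 of 9 measured markers fell in males (median −0.48) and 0 of 9 were called in females by limma (median 0.03, 3 lower and 0 higher at an unadjusted p under 0.05). Tek, the angiopoietin receptor gene, fell by 0.89 ± 0.13 in males (adjusted p = 6.14e-05). Pecam1, the endothelial adhesion gene, fell by 0.48 ± 0.08 in males (adjusted p = 0.000329), while Cdh5, the endothelial cadherin gene, was at −0.07 ± 0.13 (adjusted p = 0.811). The mean of the 9 log2 values ran from 10.13 to 10.57 in male PPE against 10.76 to 10.81 in male sham aortae, and from 10.79 to 11.12 in female PPE against 10.91 to 11.39 in female sham aortae. The part of endothelial cells in the Cd34 result was not tested.

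Cd248 encodes endosialin, a C-type lectin domain receptor of pericytes and stromal fibroblasts (19: 5068078 to 5070640). It had a lowest of 12.11, a median of 12.65 and a highest of 13.05 in male PPE aortae, against 12.97, 13.36, 13.32, 11.73 and 13.20 in male sham aortae. Male sham 4, at 11.73, was the lowest of the 12 male arrays, and of the other 4 sham aortae only 1 lay within the PPE range. Over all arrays the difference was −0.32 ± 0.24 (adjusted p = 0.442), and without male sham 4 Cd248 was called lower, at −0.62 (adjusted p = 0.0208).

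Female Cd248 was 12.58, 12.80, 12.85 and 12.95 in PPE aortae, against 13.32, 12.61 and 12.54 in sham aortae. The groups overlapped and differed by −0.03 ± 0.32 (adjusted p = 0.985). Genes listed as pericyte markers did change: 6 of 7 fell in males (median −1.08) and 4 of 7 in females (median −0.71). Among them Rgs5, a regulator of G protein signalling, fell by 1.81 ± 0.22 in males (adjusted p = 1.13e-05) and by 1.12 ± 0.29 in females (adjusted p = 0.0331). Their mean log2 value ran from 9.75 to 10.38 in male PPE against 10.81 to 11.27 in male sham aortae, and from 10.69 to 10.74 in female PPE against 11.30 to 11.49 in female sham aortae. Smooth muscle genes fell further, with medians of −2.14 in males and −1.48 in females, and pericytes and smooth muscle were not told apart here. The part of pericytes in the Cd248 values was not tested.

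Dpp4 encodes CD26, a membrane-bound exopeptidase of progenitor fibroblasts and of activated T cells (2: 62330073 to 62412315). It was the listed gene called higher in both sexes, and Sfrp1 was the other with a change above 0. Male PPE aortae had a lowest of 8.41, a median of 9.07 and a highest of 9.54, against 7.61, 7.60, 7.06, 7.55 and 7.48 in male sham aortae. Dpp4 rose by 1.55 ± 0.18 in males (2.92-fold, adjusted p = 7.22e-06), and all PPE values lay above all sham values.

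In females Dpp4 was 9.85, 9.31, 10.05 and 9.77 in PPE aortae, against 8.39, 8.70 and 8.48 in sham aortae. The groups were separated here too. Dpp4 rose by 1.22 ± 0.23 (2.33-fold, adjusted p = 0.00690), and both calls were made whichever array was left out (adjusted p at most 3.6e-05 in males and 0.0397 in females). Its log2 change was above that of 98.9% of all genes in males and 98.4% in females.

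T and NK cell markers moved with Dpp4. All 7 measured markers rose in both sexes, with medians of 1.49 in males and 1.65 in females. Their summed level, as the mean of the 7 log2 values, ran from 7.96 to 8.97 in male PPE against 6.54 to 6.72 in male sham aortae, and from 8.85 to 9.58 in female PPE against 7.45 to 7.94 in female sham aortae. Cd3e, a signalling chain gene of the T cell receptor, was higher by 2.08 ± 0.26 in males and 1.72 ± 0.33 in females (adjusted p = 1.3e-05 and 0.00762). The part of these cells in the Dpp4 result was not tested.

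Within groups, deviations of Dpp4 from its group mean had a Pearson r of 0.49 with those of the T and NK cell mean (Spearman rho 0.51, n = 19 arrays). Over the 5 such relations computed this did not pass (two-sided permutation within groups, 100000 resamples, adjusted p = 0.241 and 0.287). It was 0.43 without the 2 arrays farthest from the median of the T and NK cell mean, 0.60 in males and 0.21 in females. None of the other 4 relations passed either (adjusted p between 0.241 and 0.859). Those were Cd34 with endothelial genes (r = 0.16, rho = −0.05, 0.26 without the 2 farthest arrays, −0.39 in males, 0.62 in females) and Cd248 with pericyte genes (r = 0.51, rho = 0.32, 0.37 without the 2 farthest arrays, 0.64 in males, −0.76 in females), whose signs differed between the sexes, Gli1 with Ptch1 (r = 0.05, rho = 0.08, 0.12 without the 2 farthest arrays, 0.00 in males, 0.40 in females) and Pi16 with adipocyte genes.

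**Figure D3:**
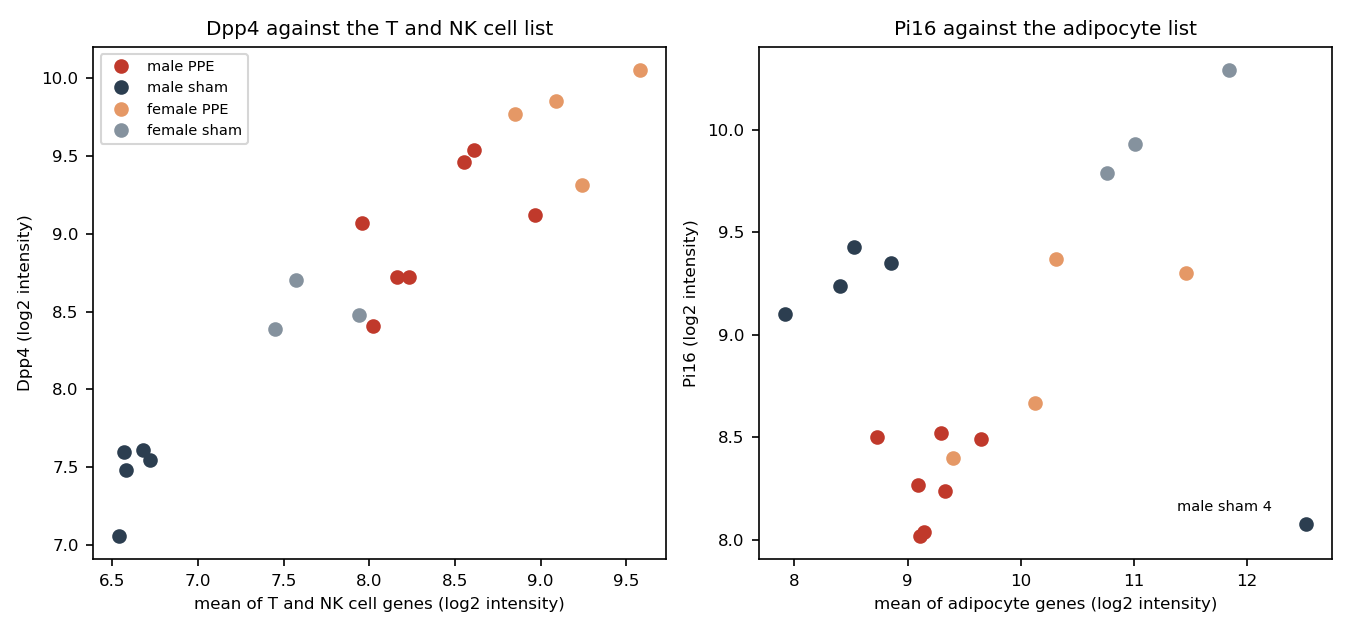
Left, Dpp4 against the mean of 7 T and NK cell genes in all 19 arrays, and right, Pi16 against the mean of 9 adipocyte genes, both as log2 intensity and coloured by group. PPE aortae lie at the upper right of sham aortae of their sex on the left, and male sham 4 stands alone on the right at an adipocyte mean of 12.52 and a Pi16 value of 8.08.

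Of the transcription factor genes, Gli1 encodes the zinc finger activator that Hedgehog signalling both uses and induces (10: 127329882 to 127341579). It had a lowest of 6.30, a median of 6.53 and a highest of 6.70 in male PPE aortae, against 7.08, 7.17, 6.68, 7.16 and 7.49 in male sham aortae. Male sham 3, at 6.68, was the only sham aorta within the PPE range. Gli1 fell by 0.58 ± 0.10 in males (1.5-fold, adjusted p = 0.000365) and was called whichever array was left out (19 fits, adjusted p at most 0.00136).

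Female Gli1 values were 7.03, 6.86, 7.01 and 6.94 in PPE aortae, against 7.25, 7.25 and 7.16 in sham aortae. All PPE values lay below all sham values. The difference of −0.26 ± 0.13 did not pass (adjusted p = 0.391), and the difference from the male response, −0.32 ± 0.17 with a 95% interval from −0.67 to 0.03, did not pass either (adjusted p = 0.544).

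The other genes of the Hedgehog pathway were lower in part. Of 14 measured, 6 fell and 0 rose in males (median −0.32), and 1 fell in females (median −0.09). Boc, a ligand-binding co-receptor gene, fell in both, by 1.22 ± 0.17 in males and 1.09 ± 0.22 in females (adjusted p = 5.09e-05 and 0.00999). In males Gas1, another co-receptor gene, was at −0.88, the signal transducer gene Smo at −0.73, Gli2 at −0.54, Gli3 at −0.39 and the ligand gene Dhh at −0.40 (adjusted p between 5.19e-05 and 0.0235). Some of these genes were dim. Dhh lay between the 28.1st and the 53.1st percentile of genes, Gli2 between the 47.8th and the 59.8th and Gli1 between the 50.8th and the 64.1st. Boc was brighter, between the 80.0th and the 90.8th. Ptch1 and Hhip, the receptor and the decoy receptor genes that Gli1 activity is known to induce, did not pass in males, at −0.18 ± 0.08 and −1.55 ± 0.56 (adjusted p = 0.151 and 0.0639). They did not pass in females either, at 0.15 ± 0.11 and −1.41 ± 0.74 (adjusted p = 0.640 and 0.414).

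Tcf21 encodes a basic helix-loop-helix factor of fibroblast and epicardial lineages (10: 22817263 to 22820143). In males it had a lowest of 5.58, a median of 5.66 and a highest of 5.94 in PPE aortae, against 6.35, 6.12, 5.40, 5.91 and 6.08 in sham aortae. In females it measured 5.62, 5.31, 5.54 and 6.06 in PPE aortae, against 5.64, 6.27 and 5.61 in sham aortae. The groups overlapped in both sexes, and the differences of −0.25 ± 0.16 and −0.21 ± 0.21 did not pass (adjusted p = 0.326 and 0.766). The 95% intervals ran from −0.58 to 0.08 in males and from −0.64 to 0.23 in females. Tcf21 was among the dimmer genes, between the 24.2nd and the 51.2nd percentile.

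Other transcription factor genes of fibroblasts fell in 7 of 13 in males (median −0.52) and 1 of 13 in females (median −0.19), and 0 rose. Osr1, a zinc finger gene of mesenchymal progenitors, fell by 1.70 ± 0.31 in males and 1.82 ± 0.41 in females (adjusted p = 0.000630 and 0.0158). Nr2f2, a nuclear receptor gene, and Tbx18, of mural and adventitial cells, fell in males, by 0.95 ± 0.11 and 0.82 ± 0.10 (adjusted p = 5.94e-06 and 1.83e-05). Twist1, another basic helix-loop-helix gene, was at 0.09 ± 0.10 in males (adjusted p = 0.657).

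Further genes commonly found with Pi16 in progenitor fibroblasts were lower more often than higher. Of 15 measured, 9 fell and 2 rose in males (median −0.50), and 6 fell and 0 rose in females (median −0.70). Sema3c, a secreted semaphorin gene, fell by 1.55 ± 0.28 in males and 1.53 ± 0.36 in females (adjusted p = 0.000502 and 0.0216). Limch1, which encodes an actin-binding protein, fell by 1.59 ± 0.18 and 1.28 ± 0.23 (adjusted p = 5.14e-06 and 0.00513). Cd55, a complement regulator gene often paired with Dpp4 as a progenitor marker, did not pass, at −0.26 ± 0.18 in males and 0.10 ± 0.23 in females (adjusted p = 0.368 and 0.914). The 2 that rose in males were Ly6c1, a neighbour of Ly6a, and Emilin2, a matrix glycoprotein gene chosen after its value was seen, at 0.77 ± 0.12 (adjusted p = 9.11e-05). Igfbp5 fell by 1.48 ± 0.16 in males (adjusted p = 4.88e-06) and was at −0.64 ± 0.21 in females without passing (adjusted p = 0.110).

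Of the general fibroblast genes, 6 of 14 were lower and 0 higher in males (median −0.28), and 0 of 14 were called in females by limma (median −0.38, 5 lower and 0 higher at an unadjusted p under 0.05). The log2 change was below 0 for 13 of the 14 in each sex. Dcn, the decorin gene, was at −0.06 ± 0.07 in males and −0.23 ± 0.09 in females (adjusted p = 0.636 and 0.161). Gsn, which encodes the actin-severing gelsolin, fell by 0.98 ± 0.26 and Mgp, the matrix Gla protein gene, by 0.82 ± 0.16 in males (adjusted p = 0.0123 and 0.00106). Dcn lay between the 99.5th and the 99.9th percentile of genes on every array. Activated fibroblast genes rose in 2 of 12 in males (median −0.03) and in 0 of 12 in females by limma (median −0.18), and 0 fell. At an unadjusted p under 0.05, 3 of the 12 were lower and 0 higher in females. The 2 were Tgfbi, a matrix adhesion gene induced by TGF-beta, at 1.16 ± 0.20, and the protease inhibitor gene Timp1, at 0.93 ± 0.25 (adjusted p = 0.000303 and 0.0129). Postn, the periostin gene, and Cthrc1, a collagen triple helix repeat gene, were at −0.34 ± 0.19 and −0.13 ± 0.16 in males (adjusted p = 0.257 and 0.680).

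Setting each array to a common mean of these 14 general fibroblast genes, a scaling chosen after the values were seen, moved the median of all genes to 0.33 in males and 0.31 in females. Of the 14, Col1a1, Col1a2, Col3a1, Dcn and Mgp lay at or above the 99.5th percentile of genes on every array, near the top of the signal range. Whether the mean of the 14 follows the amount of fibroblast RNA was not tested. On the scale set by it, Scara5, Dpt and Cd34 were called lower in males, at −0.93, −0.70 and −0.50 (adjusted p = 0.000344, 0.0277 and 0.011). Pi16 stood at −0.42 and Gli1 at −0.26 in males without passing (adjusted p = 0.0557 and 0.156). In females Pi16 was called, at −0.74 (adjusted p = 0.0407), and Scara5 and Cd34 were not, at −0.66 and −0.39 (adjusted p = 0.0548 and 0.150). Dpp4 was at 1.87 in males and 1.55 in females (adjusted p = 1.85e-06 and 0.00136).

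**Figure D4:**
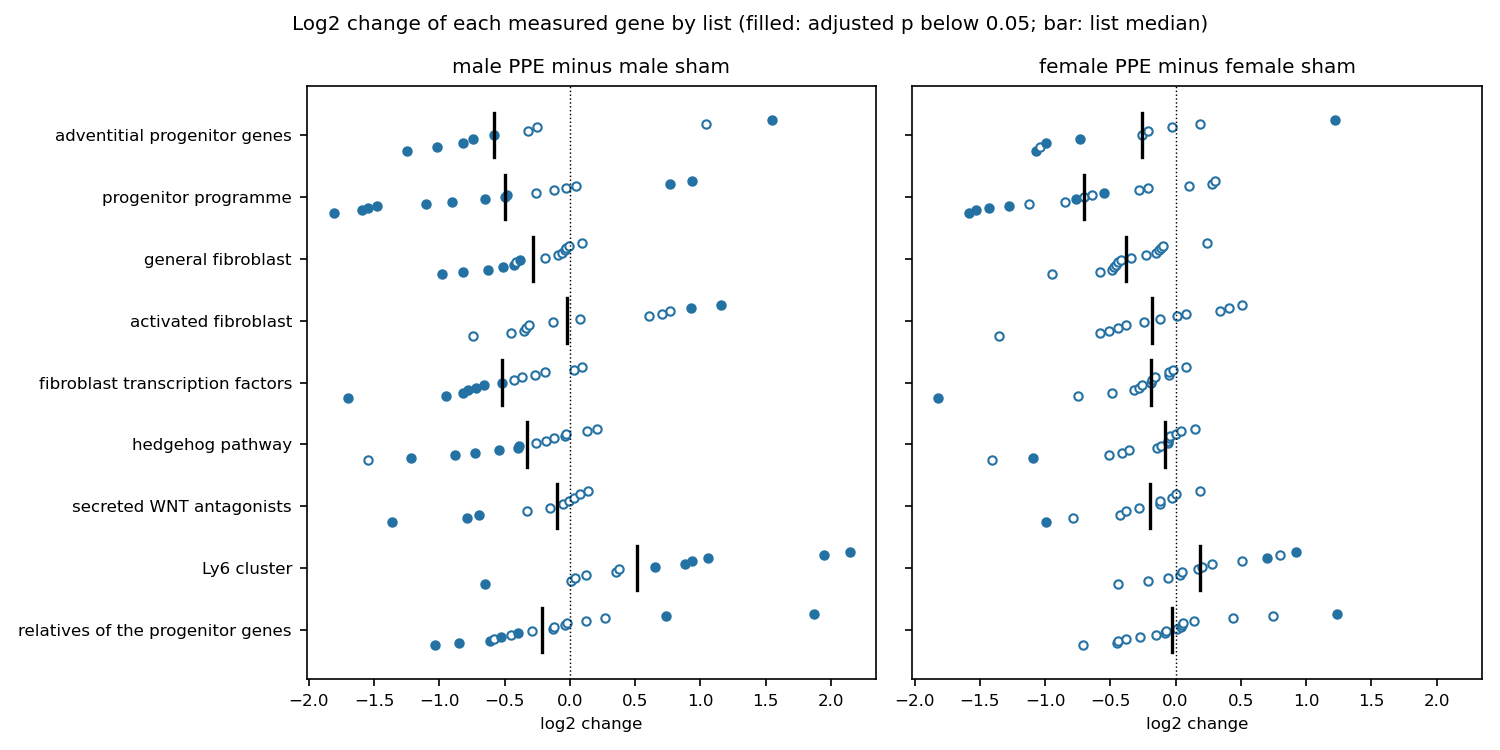
Log2 change (PPE minus sham) of each measured gene in 9 lists, males left and females right, filled where the adjusted p was below 0.05, with the list median as a bar. The medians of the adventitial progenitor genes are −0.58 and −0.26, of the further progenitor genes −0.50 and −0.70, and of the Ly6 cluster 0.51 and 0.18.

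Relatives of the listed genes did not follow them throughout. Besides Sfrp1, secreted WNT antagonist genes fell in 3 of 10 in males and 1 of 10 in females, and 0 rose. Sfrp4 fell by 0.79 ± 0.21 in males and 0.99 ± 0.27 in females (adjusted p = 0.00959 and 0.0436), Sfrp2 by 0.70 ± 0.19 and Dkk3 by 1.36 ± 0.17 in males (adjusted p = 0.0141 and 2.01e-05). Scara3, of the same scavenger receptor class as Scara5, fell by 0.53 ± 0.15 in males (adjusted p = 0.0152), whereas Msr1, the macrophage scavenger receptor gene, rose by 1.87 ± 0.23 in males and 1.24 ± 0.30 in females (adjusted p = 1.47e-05 and 0.0262). Podxl, a sialomucin gene related to Cd34, fell by 0.85 ± 0.09 in males (adjusted p = 5.36e-06). Of the lectin genes related to Cd248, Clec14a fell by 0.61 ± 0.16 and Thbd, the thrombomodulin gene, by 0.40 ± 0.12 in males (adjusted p = 0.00838 and 0.0275), while Cd93 was at 0.27 ± 0.20 (adjusted p = 0.425). Of genes with the same CAP domain as Pi16, Crispld2 fell by 1.03 ± 0.22 and Glipr1 rose by 0.74 ± 0.21 in males (adjusted p = 0.00271 and 0.0183). In all, 2 of 16 relatives rose and 5 fell in males, and 1 rose in females.

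The Ly6 genes that neighbour Ly6a on chromosome 15 were higher in part. Of 12 measured, 6 rose and 1 fell in males (median 0.51), and 2 rose in females (median 0.18). Ly6e rose by 1.06 ± 0.12 in males and 0.70 ± 0.15 in females (adjusted p = 4.3e-06 and 0.0129), and Ly6d by 0.88 ± 0.16 and 0.92 ± 0.21 (adjusted p = 0.000624 and 0.0186). In males Ly6c2 was at 2.15, Ly6i at 1.95, Ly6c1 at 0.94, Ly6f at 0.65 and the falling Lynx1 at −0.65 (adjusted p between 1.54e-06 and 0.00404). Several genes of this cluster are close copies of each other, so a probe set may take signal from more than 1 of them. These values give no level for Ly6a itself.

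A single array bore on several of the male results. Male sham 4 was the lowest male sham aorta for 6 of the 9 genes (Pi16, Cd34, Dpt, Cd248, Scara5 and Sfrp1), and male sham 3 for the other 3. The mean of 9 adipocyte genes was 12.52 in male sham 4, against 7.92 to 8.85 in the other male sham aortae, and that of the general fibroblast genes was 15.05, against 15.41 to 15.72. Mesothelial genes, too, averaged 5.87 in this array against 5.04 to 5.13 in the others. Within groups Pi16 and the adipocyte mean had r = −0.40 over 19 arrays (rho 0.06, adjusted p = 0.414 and 0.845), −0.81 in males and 0.82 in females. Without male sham 4 it was 0.69, and 0.64 without the 2 arrays farthest from the median, so its sign rests on that array. A fit with the adipocyte mean as covariate used a common slope for all arrays, although Pi16 followed it with opposite signs in the sexes. The male groups overlapped in that mean (7.92 to 12.52 in sham, 8.73 to 9.65 in PPE aortae), but the sham aortae other than male sham 4 reached only 8.85. In males Pi16 moved only from −0.74 to −0.75. With a common slope and a male sham mean raised by 1 array, the fit cannot show whether fat content was accounted for. It called 5 genes lower and 1 higher in males, and 3 lower and 1 higher in females. The same counts were found without male sham 4, male sham 5 and male PPE 1 together, and without male sham 4 alone 6 were lower and 1 higher in males.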

How the data were processed

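The deposited value table holds log2 intensities of 65956 probe sets on 19 Affymetrix Clariom D (MTA 1.0) arrays, 1 mouse each, made by the authors with the Transcriptome Analysis Console on mm10, per the submitters' processing notes. The sources used here do not give its version, how probes were summarised or how background was corrected. RNA (100 ng per mouse) was labelled with the WT PLUS kit, per the labels' protocols.

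Of the probe sets, 30604 carried exactly 1 symbol in the platform annotation. Symbols of 827 were updated against RefSeq GRCm38.p6, and the brightest of each gene was kept (30142 genes). No further normalization was applied. No array was a copy of another (at most 2.5% equal values). The 4 sex-by-treatment groups entered 1 limma model of 19 arrays (limma 3.58.1, R 4.3.3, lmFit and eBayes), with p-values adjusted over all genes. Correlations used deviations from group means. The replicate numbers did not pair the arrays (correlations of same-numbered arrays between −0.32 and 0.24), so no block was used.

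The genes and lists were chosen with earlier results of these data known. Besides the listed genes, those named were the first 2 of each list, the 2 with the lowest p in males and, for the Hedgehog, Ly6 and related gene lists, every called gene, of which those bearing on the listed genes are given. Of the markers, smooth muscle genes fell in 7 of 8 and macrophage genes rose in 6 of 7 in males (6 of 8 and 1 of 7 in females). Interferon-stimulated genes rose in 8 of 8 and 5 of 8, Schwann cell genes fell in 1 and 0 of 4, and adipocyte (9) and mesothelial (7) genes had 0 calls in either sex by limma (at most 1 at an unadjusted p under 0.05). The log2 change was below 0 for all 9 adipocyte genes in females (median −0.68) and for 5 in males (median −0.14). The female adipocyte mean ran from 9.40 to 11.46 in PPE against 10.76 to 11.84 in sham aortae. The part of fat in the female results was not tested. In simulated data with these group sizes, changes of 0.5, 1 and 2 log2 units were recovered for 65.2%, 88.5% and 98.6% of genes in males and 34.4%, 85% and 98.2% in females. That simulation used independent normal noise, a common spread per gene in all groups and only 56 to 80 changed genes of each size. Many more genes were called in the arrays, so these rates are not the sensitivity of the tests made here. The number of arrays limits the precision. A limma p-value sets a mean difference against the spread between mice, pooled over the 4 groups and moderated over all genes.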

Additional observations from a re-analysis of the deposited data

Results flagged for a closer look

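Of 171 comparisons of an array with its own group, 9 had a value farther from the others than Dixon's 95% limit, and chance gives about 1 in 20. Among the adventitial progenitor genes these were 3 of 27. Pi16 was 8.08 in male sham 4 against 9.10 to 9.43 in the other male sham aortae, and Cd248 was 11.73 in the same array against 12.97 to 13.36. Dpp4 was 7.06 in male sham 3 against 7.48 to 7.61. Among the other genes, male sham 4 stood at 6.43 for Ly6d (others 5.70 to 5.81) and 8.26 for Glipr1 (others 9.66 to 10.00), and male sham 5 at 19.68 for Mgp (others 19.02 to 19.18). In male PPE aortae, array 5 was at 17.78 for Mgp (others 18.36 to 18.61) and 8.32 for Ptch1 (others 8.55 to 8.66), and array 3 at 7.31 for Ly6d (others 6.46 to 6.82). For Ly6i the PPE response differed between the cohorts, by 1.43 (male minus female, limma, adjusted p = 0.0429), with responses of 1.95 in males and 0.51 in females. This call was lost without female sham 1, without female sham 2 and with replicate numbers as a block, where 0 of all genes were called. Whether separate scaling of the cohorts had a part was not tested.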

How the results depend on the processing

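Dpp4 kept its direction under every alternative tried in both sexes, and its call under each but the replicate block in females. With the replicate block, 3 genes were called lower in males and 1 in females, 0 higher in females (Dpp4 at 1.21, adjusted p = 0.0644), and the differences between the sexes turned to 0.07 for Cd34 and 0.06 for Tcf21. The calls lost were Pi16 and Dpt in males (adjusted p = 0.17 and 0.0937) and Pi16 and Scara5 in females (adjusted p = 0.13 and 0.086). The shared numbers are not known to mark shared litters or days. After centring each array on its median, 0 genes were called lower in females (Pi16, Scara5 and Cd34 at adjusted p = 0.059, 0.0705 and 0.0905), and the Tcf21 difference was 0. Leaving out 1 array gave 4 to 6 genes lower and 1 to 2 higher in males, and 0 to 3 lower and 1 higher in females. The medians then ranged from −0.69 to −0.49 in males and from −0.35 to −0.23 in females. Signs that turned in these fits belonged to uncalled values: the sex differences of Cd34 (−0.24 to 0.08), Dpt (−0.14 to 0.19) and Tcf21 (−0.26 to 0.10), and the female changes of Cd248 (−0.17 to 0.22) and Tcf21 (−0.35 to 0.01).

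Scaled to the general fibroblast genes, 3 genes were lower and 2 higher in males (Sfrp1 joined, at 1.36) and 1 lower in females, with medians of −0.26 and 0.07. On this scale most calls over all 30142 genes were higher. In males 13554 were higher and 949 lower, and in females 4049 were higher and 116 lower. Uncalled values that turned were Cd248 (0.00 in males, 0.30 in females), Tcf21 (0.07 and 0.12) and female Gli1 (0.07). Others that turned were the Dpt difference (−0.17 with array weights, −0.18 without 3 male arrays), female Cd248 (0.11 with array weights) and female Sfrp1 (−0.11 with the adipocyte covariate). The cause was not tested. The 3-array, adipocyte and fibroblast alternatives were chosen after seeing the data. Over all genes the count of 5923 calls in males was 3535 with the block and 14503 on the fibroblast scale. The count of 1273 in females was 3951 with array weights, 639 with the block, 1970 in females alone, 2454 without 3 male arrays, 4165 on the fibroblast scale and 368 to 1613 without 1 array. The 163 calls of a sex difference were 0 with the block, 931 with array weights, 511 with the adipocyte covariate, 274 after median centring, 260 without dim genes, 79 without 3 male arrays and 66 on the fibroblast scale, and between 0 (without female sham 1 or 2) and 426 (without male sham 3) when 1 array was left out. Of the female calls 65.6% were higher, against 47.6% after quantile normalization. In males 49.2% were higher, against 60.3% after median centring.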
